A study of Mus musculus with 4 samples.

Results

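The small nucleolar RNA (snoRNA) host genes are transcripts that carry snoRNAs in their introns. Here they are 9 genes, Gas5, Snhg1, Snhg3, Snhg4, Snhg5, Snhg6, Snhg8, Snhg11 and Snhg12, chosen by symbol and not by any measured value, and all 9 were found among the 24341 genes of the expression table. RNA was sequenced from CAD cells, a catecholaminergic neuronal line of the mouse, so every library comes from the same line. In the tested condition the cells received the small-molecule ACSS2 inhibitor (ACSS2i) at 20 µM for 24 h, and in the control condition they received the solvent DMSO for 24 h. Cells of both conditions had been moved from medium with serum to medium without it and kept there for 5 days, so that the comparison is between differentiated, serum-deprived cells. There were 2 libraries of polyadenylated RNA for ACSS2i and 2 for DMSO. Whether replicates were grown as separate cultures is not stated in the labels, and p-values therefore reflect only how far these libraries scatter, which may be technical.

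A snoRNA host gene is transcribed, spliced and polyadenylated like a messenger RNA, and its snoRNAs are trimmed out of the excised introns. C/D box snoRNAs guide the methylation of ribosomal RNA and H/ACA box snoRNAs guide its conversion of uridine to pseudouridine. The spliced host transcripts of this family hold only short reading frames, many of them are removed by nonsense-mediated decay when ribosomes translate them, and several begin with a run of pyrimidines, as messenger RNAs of ribosomal proteins do. Gas5 was named for its accumulation in cells whose growth has stopped, for example after serum withdrawal. ACSS2 is the enzyme that turns acetate into acetyl-CoA outside mitochondria, and nuclear acetyl-CoA is the donor for histone acetylation.

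The unit of the deposited values was taken as FPKM, that is, fragments scaled to transcript length and to the number of mapped fragments. The nominal depth, estimated from the low values, was 7600000 and 9660000 reads in ACSS2i replicates 1 and 2, and 11300000 and 3280000 reads in DMSO replicates 1 and 2. Short RNA genes took 6.59% and 7.49% of the summed FPKM in the ACSS2i libraries and 7.35% and 11.6% in the DMSO libraries. Of the 10 markers fixed for CAD neurons, 9 reached a mean of 1 FPKM, and the list's summed level was 553 and 1301 FPKM in ACSS2i against 978 and 983 FPKM in DMSO. Of these 9 markers 3 had a positive log2 fold change and the median was -0.41; their part in the results for the host genes was not tested. The summed markers of astrocytes, microglia, fibroblasts and endothelial cells were at most 1.64 FPKM in any library, and those of oligodendrocytes at 4.35 to 5.18 FPKM. Acss2 itself, whose protein and not its RNA is the target, was at 12.8 and 26.6 FPKM in ACSS2i and at 11.7 and 10.0 FPKM in DMSO. In such bulk samples fewer cells that express a gene and less RNA per cell cannot be told apart.

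The host genes covered a wide range of abundance, and 8 of the 9 reached the mean of 1 FPKM required for testing, as did 11486 genes in all. Snhg1, on chromosome 19 from 8723487 to 8726326 on the plus strand of GRCm38 next to Slc3a2, was the most abundant, with a mean of 926 FPKM over the 4 libraries that exceeded 99.1% of the tested genes. Snhg12, on chromosome 4 from 132308678 to 132311024 on the plus strand, came next at 431 FPKM, then Snhg6 at 175 FPKM and Snhg5 at 146 FPKM. Snhg8, Gas5, Snhg3 and Snhg4 had means of 44.5, 42.8, 30.5 and 25.8 FPKM. Snhg11 was last at 0.179 FPKM and was not tested. In this order Snhg1 stood above Snhg12, Snhg12 above Snhg6, Snhg5 above Snhg8 and Snhg4 above Snhg11 in every library. Snhg6 and Snhg5 overlapped in their values, and so did the neighbours from Snhg8 down to Snhg4, so that the order among those was not separated from the spread between libraries. Since FPKM is scaled to transcript length these are comparisons of level between genes, but the annotation used for the lengths was not given in the sources used here.

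**Figure D1:**
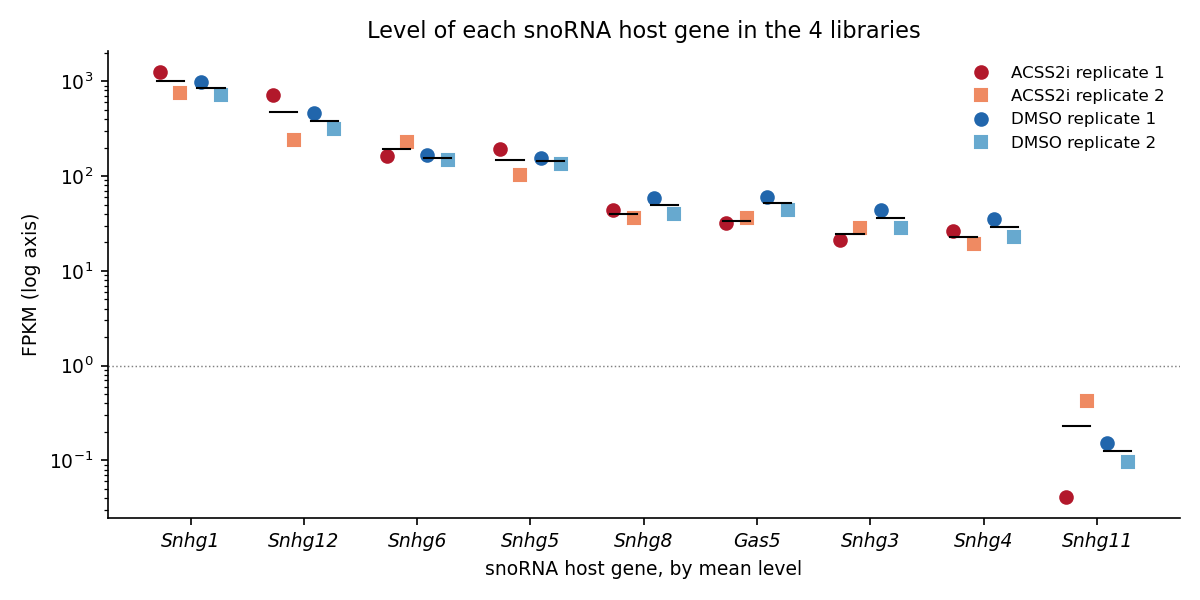
FPKM of each snoRNA host gene in the 4 libraries on a log axis, ordered by mean level, with ACSS2i left of DMSO, points for libraries and short lines for group means; the dotted line marks the 1 FPKM needed for testing. Snhg1 lies highest at 718 to 1254 FPKM, and Snhg11 alone lies below the dotted line.

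The starts of several members shared sequence features. RefSeq (GRCm38.p6) gave a window of 250 bases before to 50 bases after a start for 7 of the 9 members, with 2 windows for Gas5. The hexamer TATAAA was searched between 45 and 16 bases before the start, on the gene's own strand and not on the other. The hexamer TATATA was accepted in its place, and so was the hexamer TTTATA. On the same strand a run of at least 6 C or T letters was searched that reached past the start. It could begin before the start or within 10 bases after it. The hexamers partly overlap each other in sequence. Both features were found for 5 of the 7 members, Snhg1, Snhg12, Snhg5, Snhg8 and the downstream start of Gas5. Counted by window this was 5 of the members' 8 windows, and the upstream window of Gas5 held neither feature. Of all 32851 windows 3.50% held such a hexamer, 17.6% held such a run and 0.755% held both. The search rules were not part of the planned design, so these shares are no test of enrichment among the members. Snhg1 matched only through TTTATA, Snhg12 and Gas5 only through TATATA, and the run of Gas5 had the shortest length accepted. A match is a description of the letters and not evidence of a bound factor. The 5 windows are shown from 60 bases before to 50 bases after the annotated start, with the hexamer and the pyrimidine run in capitals, because these are the members' windows that held both.
Snhg1 (chr19:8723427-8723536, plus strand): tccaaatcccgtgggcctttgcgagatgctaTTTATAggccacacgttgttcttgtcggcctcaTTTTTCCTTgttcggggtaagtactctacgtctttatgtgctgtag
Snhg12 (chr4:132308618-132308727, plus strand): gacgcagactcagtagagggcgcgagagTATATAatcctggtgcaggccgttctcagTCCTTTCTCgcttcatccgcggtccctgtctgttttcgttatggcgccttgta
Snhg5 (chr9:88522848-88522957, minus strand): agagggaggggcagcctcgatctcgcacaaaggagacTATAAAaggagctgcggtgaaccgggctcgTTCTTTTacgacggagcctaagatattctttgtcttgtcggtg
Snhg8 (chr3:123508287-123508396, minus strand): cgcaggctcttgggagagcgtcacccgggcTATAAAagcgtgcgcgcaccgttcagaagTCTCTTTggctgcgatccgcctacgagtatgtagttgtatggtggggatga
Gas5 (chr1:161035106-161035215, plus strand): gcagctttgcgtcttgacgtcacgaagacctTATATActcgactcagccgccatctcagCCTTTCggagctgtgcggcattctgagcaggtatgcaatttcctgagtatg

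No snoRNA host gene was called between ACSS2i and DMSO. By limma on log2(FPKM + 1), adjusted over the 11486 genes tested, 0 of the 8 tested members passed an adjusted p of 0.05, and the share of all genes that passed was 0.0261%. At an unadjusted p under 0.05 the members also gave 0, against 6.96% of all genes in either direction and 3.67% in the lower one. By limma Gas5 reached an unadjusted p of 0.0393 with short RNA genes left out, and Snhg12 one of 0.0482 without ACSS2i replicate 2. The values in the ACSS2i libraries lay entirely below those in the DMSO libraries for 1 of the 8, Gas5, where 18.3% of all tested genes did so, and entirely above for 0 of the 8, where 19% did so. The log2 fold change was negative for 5 of the 8, against 47.8% of all genes. The members' median log2 fold change was -0.15, beside a median of 0.020 over all genes, and it was 0.036 without DMSO replicate 1. Leaving out short RNA genes also rescaled each library to the same summed FPKM. The members' median was then -0.25 and the median over all genes -0.065. With 2 libraries a group, an exact permutation test of any single gene cannot go below p = 0.333.

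**Figure D2:**
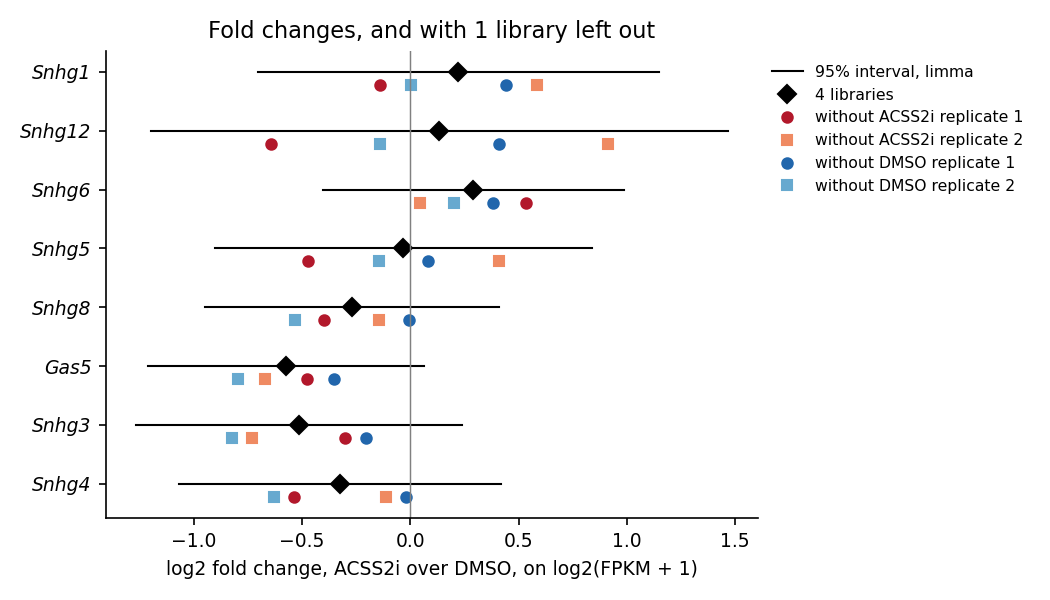
Log2 fold change of each tested host gene, ACSS2i over DMSO, with limma's 95% interval (black) and, below each, the value when a single library is left out (colours). Every interval includes 0, and for Snhg1, Snhg12 and Snhg5 the value changes sign with the library left out.

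The members with the lowest fold changes were Gas5 and Snhg3. Gas5, on chromosome 1 from 161034601 to 161038539 on the plus strand, was at 31.6 and 36.3 FPKM in ACSS2i, against 59.6 and 43.6 FPKM in DMSO. Both inhibitor libraries were below both DMSO libraries, and the DMSO libraries differed from each other by more than the inhibitor libraries did. The group means were 34.0 ± 3.30 FPKM in ACSS2i and 51.6 ± 11.4 FPKM in DMSO (SD, n = 2 each), a ratio of 0.658. Its log2 fold change was -0.58 ± 0.26 (SE; 95% interval -1.21 to 0.062; unadjusted p = 0.0691 and adjusted p = 0.751 by limma), and it was -0.35 without DMSO replicate 1 and -0.80 without DMSO replicate 2. Behind these values stood 632 and 921 reads in ACSS2i and 1766 and 376 reads in DMSO, read from the steps in which the values occur. Gas5 overlaps the opposite-strand gene Zbtb37 over 428 bases in GENCODE M21, whose level was 4.22 and 4.23 FPKM in ACSS2i and 4.25 and 3.62 FPKM in DMSO. Whether the authors' counting used strand is not given in the sources used here.

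Snhg3, host of the H/ACA snoRNAs Snora73a and Snora73b that act in cleavage of the ribosomal RNA precursor, lies on chromosome 4 from 132351933 to 132353686 on the minus strand. It was at 20.9 and 28.6 FPKM in ACSS2i, against 44.1 and 28.4 FPKM in DMSO. The groups overlapped, since ACSS2i replicate 2 stood just above DMSO replicate 2. The log2 fold change was -0.52 ± 0.31 (SE; 95% interval -1.27 to 0.24; adjusted p = 0.804 by limma), and it was -0.21 without DMSO replicate 1. Only 41 and 71 reads in ACSS2i and 128 and 24 reads in DMSO stood behind it. The GENCODE M21 spans of Snhg3, longer than the RefSeq one, and of the same-strand gene Rcc1 overlap over 5592 bases, so reads may have been shared between them; Rcc1, the nucleotide exchange factor of the GTPase Ran, was at 11.8 and 14.4 FPKM in ACSS2i and at 10.4 and 10.8 FPKM in DMSO.

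Snhg4 and Snhg8 had smaller negative fold changes. Snhg4, host of Snora74a on chromosome 18, was at 26.1 and 19.2 FPKM in ACSS2i, against 35.2 and 22.8 FPKM in DMSO (log2 fold change -0.32 ± 0.30, SE; adjusted p = 0.863 by limma). Snhg8, host of Snora24 on chromosome 3 from 123507552 to 123508336 on the minus strand, was at 43.5 and 36.3 FPKM in ACSS2i, against 58.0 and 40.0 FPKM in DMSO (log2 fold change -0.27 ± 0.28, SE; adjusted p = 0.880 by limma). For both genes DMSO replicate 1 was the highest library, ACSS2i replicate 2 was the lowest, and the groups overlapped. Without DMSO replicate 1 the log2 fold changes came to -0.021 for Snhg4 and -0.0085 for Snhg8. Reads numbered 210 and 196 in ACSS2i and 419 and 79 in DMSO for Snhg4, and 214 and 227 in ACSS2i and 423 and 85 in DMSO for Snhg8.

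In the abundant hosts Snhg1, Snhg12 and Snhg5 the inhibitor libraries stood on opposite sides of the DMSO mean. Snhg1, a host of C/D box snoRNAs, was at 1254 and 758 FPKM in ACSS2i, against 973 and 718 FPKM in DMSO. ACSS2i replicate 1 was the highest library and DMSO replicate 2 the lowest, with the other pair between them. The log2 fold change was 0.22 ± 0.38 (SE; adjusted p = 0.940 by limma), and it was -0.14 without ACSS2i replicate 1.

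Snhg12, which carries 3 H/ACA and 1 C/D snoRNA, was at 712 and 242 FPKM in ACSS2i, against 458 and 312 FPKM in DMSO. The inhibitor libraries held both the highest and the lowest value, and its highest value was 2.94 times its lowest. Relative to the DMSO mean the log2 level was 0.91 in ACSS2i replicate 1 and -0.64 in ACSS2i replicate 2. A difference as large as the 1.55 between these libraries was found in 2.97% of all tested genes. The log2 fold change was 0.13 ± 0.54 (SE; 95% interval -1.20 to 1.47; adjusted p = 0.979 by limma), and it was -0.64 without ACSS2i replicate 1 and -0.14 without DMSO replicate 2. It rested on 2418 and 1043 reads in ACSS2i and 2305 and 458 reads in DMSO.

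Snhg5, host of the C/D snoRNAs Snord50a and Snord50b, lies on chromosome 9 from 88521052 to 88522897 on the minus strand. It was at 191 and 103 FPKM in ACSS2i, against 155 and 133 FPKM in DMSO. Here too ACSS2i replicate 1 was the highest and ACSS2i replicate 2 the lowest library. The log2 fold change was -0.032 ± 0.35 (SE; 95% interval -0.90 to 0.84; adjusted p = 0.991 by limma), and it was 0.41 without ACSS2i replicate 2 and 0.081 without DMSO replicate 1.

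**Figure D3:**
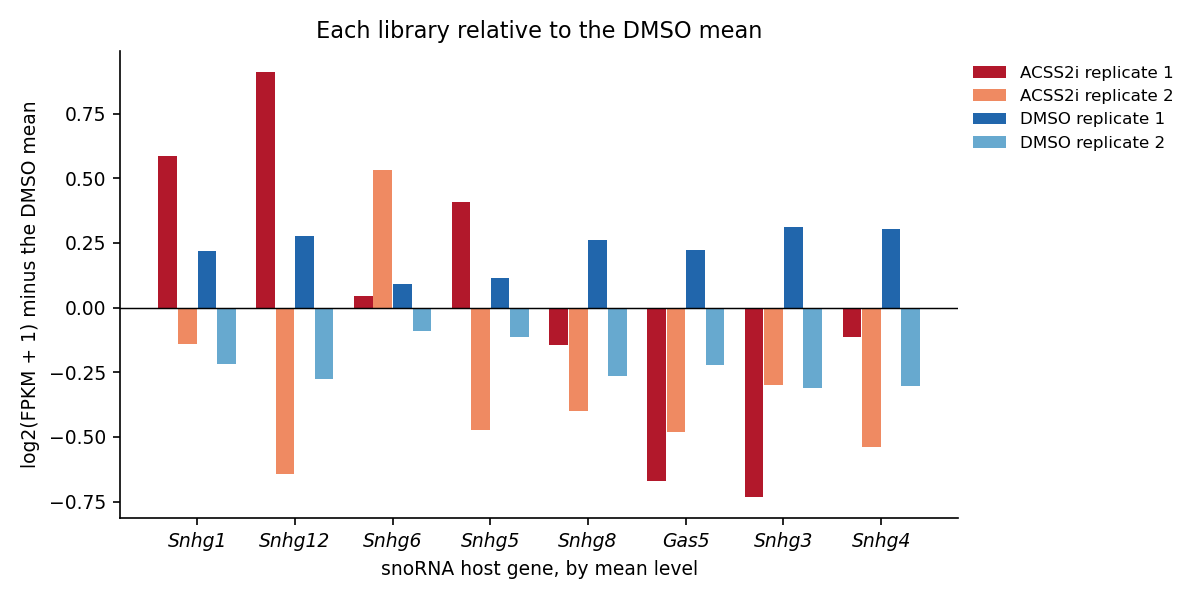
Level of each tested host gene in each library as log2(FPKM + 1) minus the mean of the DMSO libraries, which therefore mirror each other. ACSS2i replicate 1 stands at 0.58, 0.91 and 0.41 and ACSS2i replicate 2 at -0.14, -0.64 and -0.47 for Snhg1, Snhg12 and Snhg5.

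Snhg6, host of Snord87, was the only tested member with its highest value in ACSS2i replicate 2. It lies on chromosome 1 from 9942025 to 9944118 on the minus strand and was at 162 and 227 FPKM in ACSS2i, against 167 and 147 FPKM in DMSO. ACSS2i replicate 1 lay between the DMSO libraries, so the groups overlapped (log2 fold change 0.29 ± 0.28, SE; adjusted p = 0.870 by limma), and the value was 0.046 without ACSS2i replicate 2. Snhg6 overlaps the opposite-strand gene Mcmdc2 over 127 bases in GENCODE M21. Mcmdc2 was at 0.20 and 0.01 FPKM in ACSS2i and at 0.0676 and 0.01 FPKM in DMSO, below the level for testing.

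Snhg11, on chromosome 2 from 158375713 to 158386474 on the plus strand and known as a transcript of neurons, was barely detected. It was at 0.0415 and 0.425 FPKM in ACSS2i, against 0.154 and 0.0961 FPKM in DMSO. These values rest on 2 and 26 reads in ACSS2i and on 11 and 2 reads in DMSO, and the inhibitor libraries held both extremes. No test was made at this level.

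A difference between the DMSO libraries ran through the whole group. All 8 tested members were higher in DMSO replicate 1 than in DMSO replicate 2, as was Snhg11, while 50% of all tested genes were. This was noticed after the values were seen. It was not particular to the members. In a list of other noncoding hosts, followed below, all 7 tested genes were also higher in DMSO replicate 1. The summed level of that list was 275 FPKM in DMSO replicate 1 and 134 FPKM in DMSO replicate 2. The log2 difference between these libraries was 0.62 for Snhg3, 0.61 for Snhg4 and 0.18 for Snhg6, where the SD of this difference over all tested genes was 0.638. DMSO replicate 2 was also the shallowest library and had the largest share of short RNA, and the part of either in this difference was not tested. Between the ACSS2i libraries replicate 1 was the higher for 5 of the 8, against 48.1% of all genes, and the SD over all genes was 0.747.

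The hosted snoRNAs were followed through a map of 31 snoRNAs to the 9 hosts, of which 9 snoRNAs had a row of that symbol in the table. Snord47 of Gas5, Snora24 of Snhg8 and Snora61 and Snord99 of Snhg12 were listed at the table's lowest value of 0.01 in all 4 libraries. The other 5, Snora16a and Snora44 of Snhg12, Snord22 of Snhg1, Snord87 of Snhg6 and Snora74a of Snhg4, had a value above that in at least 2 libraries. Mature snoRNAs carry no poly(A) tail, and the libraries were made from polyadenylated RNA. The GENCODE M21 (GRCm38) sequences of Snora16a, the row that passed the test, and of the 3 with the most reads are shown because their rows have to be told apart from the host in which they lie. Capitals mark the box motifs that were found on the snoRNA strand, which are ATGATGA or GTGATGA for box C, the last CTGA for box D, ANANNA near the middle for box H and ACA within the last 7 bases.
Snora16a (chr4:132309465-132309600, plus strand): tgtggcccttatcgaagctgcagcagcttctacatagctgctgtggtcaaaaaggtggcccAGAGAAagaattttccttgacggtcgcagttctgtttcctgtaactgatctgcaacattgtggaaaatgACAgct
Snora44 (chr4:132309941-132310069, plus strand): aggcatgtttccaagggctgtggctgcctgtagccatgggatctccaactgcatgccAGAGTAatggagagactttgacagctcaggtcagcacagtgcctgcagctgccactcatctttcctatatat
Snord87 (chr1:9942463-9942549, minus strand): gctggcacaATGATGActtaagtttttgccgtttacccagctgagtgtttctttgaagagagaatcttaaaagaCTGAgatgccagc
Snord22 (chr19:8725866-8725991, plus strand): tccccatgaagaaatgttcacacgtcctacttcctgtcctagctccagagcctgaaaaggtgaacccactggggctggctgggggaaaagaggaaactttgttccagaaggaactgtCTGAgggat
Snord87 is intronic in all 5 annotated Snhg6 transcripts. Exons cover Snora16a and Snora44 in 2 of 10 annotated Snhg12 transcripts and Snord22 in 5 of 18 annotated Snhg1 transcripts, the rest having an intron or no sequence there.

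Snora16a was among the 3 genes of the whole table that passed the limma test, and it rested on 3 reads. It was at 23.2 and 36.5 FPKM in ACSS2i and at the lowest value of 0.01 in both DMSO libraries (adjusted p = 0.0200 by limma). It reached the mean of 1 FPKM needed for testing only through the ACSS2i libraries, and its DMSO values do not vary because both are the lowest value. After scaling by depth the ACSS2i values stood in a ratio of 1 to 2, which is 1 read in ACSS2i replicate 1 and 2 reads in ACSS2i replicate 2 if the smaller is a single read. A count of 0 allows up to 3 reads, which would be worth 47.0 FPKM in DMSO replicate 1 and 161 FPKM in DMSO replicate 2, more than was seen with the inhibitor. The fitted log2 fold change of 4.90 depends on the pseudocount and is no bound, since it was 8.05 with a pseudocount of 0.1 and 2.77 with one of 5. In limma's voom on the reads it had an adjusted p of 0.812. Its host Snhg12, with 2418 and 1043 reads in ACSS2i and 2305 and 458 reads in DMSO, had overlapping groups.

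The other snoRNA rows also rested on few reads, although the FPKM of Snora44, Snord22 and Snord87 was at 228 or more in every library. Snora44 was at 543 and 427 FPKM in ACSS2i, against 1465 and 228 FPKM in DMSO, which came to 11 and 11 reads in ACSS2i and 44 and 2 reads in DMSO. The DMSO libraries held both extremes, and the log2 fold change was -0.27 ± 0.83 (SE; adjusted p = 0.972 by limma), and 1.07 without DMSO replicate 1. Per 1000 reads of Snhg12 there were 4.55 and 10.5 Snora44 reads in ACSS2i and 19.1 and 4.37 in DMSO.

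Snord87 was at 2990 and 11774 FPKM in ACSS2i, against 4037 and 20769 FPKM in DMSO, on 1 and 5 reads in ACSS2i and 2 and 3 reads in DMSO. A single read of this snoRNA was worth 2990 and 2355 FPKM in the ACSS2i libraries and 2018 and 6923 FPKM in the DMSO libraries. Snord22 was at 302 and 662 FPKM in ACSS2i, against 408 and 856 FPKM in DMSO, on 9 and 25 reads in ACSS2i and 18 and 11 reads in DMSO. The groups overlapped for both snoRNAs (log2 fold change -0.63 ± 0.97 for Snord87 and -0.40 ± 0.52 for Snord22, SE; adjusted p = 0.934 and 0.913 by limma). Without ACSS2i replicate 1 these came to 0.36 and 0.16, and without DMSO replicate 2 to 0.56 and 0.13. Snora74a was at 4.77 and 3.76 FPKM in ACSS2i, a single read each, and at 0.01 and 11.1 FPKM in DMSO, 0 reads and 1 read.

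**Figure D4:**
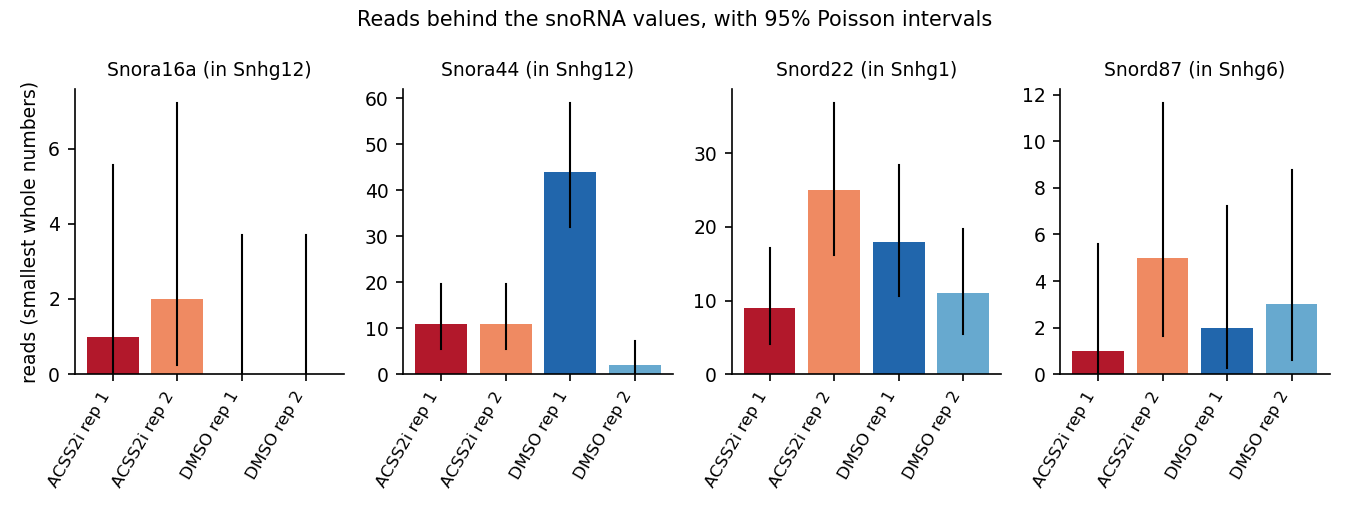
Reads behind the values of 4 hosted snoRNAs in each library, as the smallest whole numbers to which the depth-scaled values are proportional, with 95% exact Poisson intervals that cover counting error only. Snora16a has 1 and 2 reads in ACSS2i and 0 in both DMSO libraries, and every interval of this snoRNA reaches above 3.

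Related genes were followed in 4 lists, and 0 of their tested genes passed. Of the 12 other noncoding hosts fixed as a list, 7 were tested, 0 passed in either direction, and the values lay entirely below DMSO for 2 of them and entirely above for 0, where 18.3% and 19% of all tested genes did so. The 2 below were Snhg17, at 13.9 and 9.86 FPKM in ACSS2i against 20.7 and 18.1 FPKM in DMSO (log2 fold change -0.68 ± 0.26, SE; unadjusted p = 0.0395 and adjusted p = 0.700 by limma), and Snhg20, at 16.1 and 24.7 FPKM in ACSS2i against 33.9 and 29.8 FPKM in DMSO (log2 fold change -0.64 ± 0.28, SE). The list median was -0.10. With a single library omitted it ran from -0.62 (DMSO replicate 2 omitted) to 0.30 (DMSO replicate 1 omitted). It was 0.0017 when ACSS2i replicate 1 was dropped, -0.25 when ACSS2i replicate 2 was, and -0.27 by voom. Snhg14 and Snhg10 had log2 fold changes of 0.15 and -0.16, with overlapping groups.

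Among 19 tested protein-coding hosts of snoRNAs 0 passed, 8 lay entirely above DMSO and 4 entirely below, where 19% and 18.3% of all tested genes did so. The median log2 fold change was 0.19; it was 0.12 without DMSO replicate 1, 0.11 with quantile normalization, 0.097 with short RNA genes left out and -0.18 by voom, which covered fewer of these genes. Hspa8, the constitutive heat shock protein, was at 3365 and 5753 FPKM in ACSS2i against 1890 and 1945 FPKM in DMSO (log2 fold change 1.20 ± 0.40, SE; adjusted p = 0.618 by limma). The translation factors Eif4a1 and Eef2 and the chaperonin subunit Tcp1 had log2 fold changes of 0.63, 0.47 and 0.49, all without overlap between groups.

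The proteins that bind and assemble snoRNAs gave a median of 0.16 over 18 tested genes, with 15 positive, 0 passing, 5 entirely above DMSO and 1 entirely below. Of all tested genes 47.8% were negative, 19% lay entirely above DMSO and 18.3% entirely below. The list median came to 0.074 with short RNA genes left out, 0.082 if ACSS2i replicate 1 was omitted, 0.087 if DMSO replicate 1 was and 0.24 if ACSS2i replicate 2 was. Fbl, the methyltransferase fibrillarin of C/D particles, was at 109 and 146 FPKM in ACSS2i against 81.2 and 98.3 FPKM in DMSO (log2 fold change 0.49 ± 0.27, SE; adjusted p = 0.791 by limma). The assembly ATPases Ruvbl1 and Ruvbl2 had log2 fold changes of 0.51 and 0.49. Nop56, a core protein of C/D particles and itself a snoRNA host, was at 253 and 196 FPKM in ACSS2i against 270 and 309 FPKM in DMSO (log2 fold change -0.38 ± 0.28, SE).

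The factors of nonsense-mediated decay and decapping, the route by which many spliced host transcripts are removed, had a median of -0.0095 over 17 tested genes, with 0 passing, 3 entirely above DMSO and 5 entirely below, where 19% and 18.3% of all tested genes did so. The median was 0.045 with a filter at a mean of 5, where no fold change moved and only Dcp1a dropped out of the list. It was also 0.045 by voom, which covered 7676 of the 11486 genes tested, and -0.10 with short RNA genes left out. Rbm8a, of the exon junction complex, was at 41.7 and 53.5 FPKM in ACSS2i against 30.6 and 35.8 FPKM in DMSO (log2 fold change 0.50). Smg1, the kinase that phosphorylates Upf1, was at 13.9 and 15.9 FPKM in ACSS2i against 22.5 and 19.2 FPKM in DMSO (log2 fold change -0.46), and Dcp1a and Casc3 had log2 fold changes of -0.34 and 0.35.

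**Figure D5:**
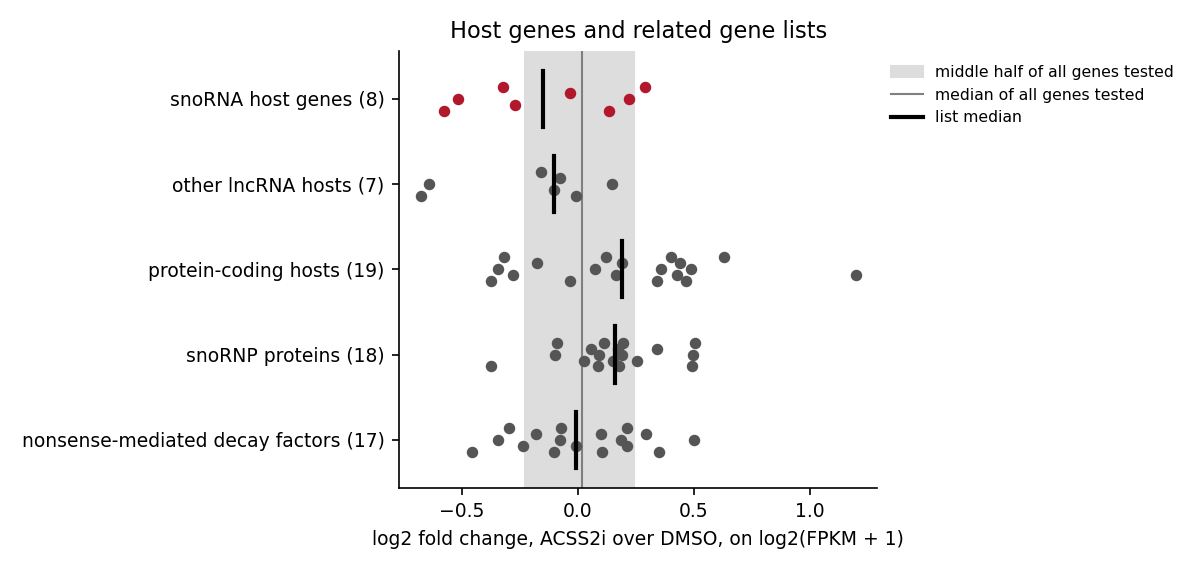
Log2 fold changes, ACSS2i over DMSO, of the tested snoRNA host genes and of 4 related lists, 1 point per gene, with list medians (black) and the median and middle 50% of all tested genes (grey line and band). The host gene median lies at -0.15 and the band runs from -0.23 to 0.24.

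The pattern of the family over the 4 libraries was summarised as the mean of the tested members' log2(FPKM + 1) values, each centred on its own mean. It stood at 0.10 and -0.24 in the ACSS2i libraries and at 0.29 and -0.16 in the DMSO libraries. The genes nearest to it by Euclidean distance over these 4 values, outside members and short RNAs, were 6330403K07Rik (distance 0.022), Arhgef4 (0.051), Tmem141 (0.061), Fdxacb1 (0.064) and Poglut1 (0.068). With 4 libraries and 11486 genes such near matches are a description of these libraries.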

How the data were processed

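RNA from 2 ACSS2i and 2 DMSO libraries of CAD cells was compared. Per the submitters' processing notes, Cufflinks 2.2.1, Cuffdiff, STAR 2.3.0, bcl2fastq 02.14.01.07 and the build mm10 were used. The sources used here do not give the annotation, the use of strand or any scaling between libraries. The deposited values were taken as FPKM because Cufflinks is named; the table is called adjusted, and that adjustment is not described. The lowest value in each library is 0.01. Sept7, which held a failure mark in ACSS2i replicate 2, was left out.

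Genes reaching a mean of 1 FPKM were tested on log2(FPKM + 1), a scale that understates changes of low genes. The test was limma 3.58.1 in R 4.3.3 (mean-variance trend, two-sided, Benjamini-Hochberg adjusted over 11486 genes, threshold 0.05). It was also run on simulated data with shifts larger than any member's fold change, which does not bear on changes as small as the members'. Intervals and SE are limma's. Alternatives were the pseudocount, the filter, scaling, short RNA genes, the trend, a replicate block and leaving out each library. Where short RNA genes were left out, each library was rescaled to the same summed FPKM.

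Depth was read from the low values. A ratio to DMSO replicate 1 shared by many low genes gave relative depths of 0.675 and 0.857 for ACSS2i and 1 and 0.292 for DMSO; 203 genes with a single GENCODE M21 transcript gave the nominal totals. Reads are the smallest whole numbers to which a gene's depth-scaled values are proportional, within 0.0006%; the true counts could be a whole multiple. They were found for all 9 members and for 7676 tested genes (66.8%), on which limma's voom was run as an alternative added after seeing the data; it called 0 genes at an adjusted p under 0.05. Poisson intervals and floors cover counting error only.

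Members, lists, tests and the naming rule were chosen with earlier results of these data known. Named were all members, every row of the snoRNA map, the 4 genes of each list with the smallest p, genes that overlap a member, the 5 nearest patterns and Acss2; the rule also held other direct neighbours, whose values are not reported. Promoter sequences are from RefSeq (GRCm38.p6) and snoRNA sequences from GENCODE M21 (GRCm38), the mm10 assembly.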

Additional observations from a re-analysis of the deposited data

How the results depend on the processing

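In all 14 alternatives 0 of the tested members passed an adjusted p of 0.05, the lowest being 0.379. Both filters, the trend and the block, 4 settings in all, leave the members' fold changes as they are. Under the other 10 settings 74 of 80 member values kept their direction, and Gas5, Snhg3, Snhg4, Snhg6 and Snhg8 kept theirs in all of them. The pseudocounts and the scaling by median ratio moved the values little and could hardly reverse them, so the tally overstates stability. All reversals but that of Snhg12 with quantile normalization came from leaving out 1 library. Without DMSO replicate 1 Snhg4 and Snhg8 kept their direction only at -0.021 and -0.0085. Leaving out 1 library gave -0.14 to 0.58 for Snhg1, -0.64 to 0.91 for Snhg12 and -0.47 to 0.41 for Snhg5, and Snhg12 was at -0.028 with quantile normalization; the cause was not tested. The members' median ran from -0.44 to 0.036 over these fits. Leaving out 1 library gave -0.96 to 0.16 for Snord22, -1.81 to 0.56 for Snord87, -1.60 to 1.07 for Snora44 and -1.20 to 2.38 for Snora74a. The count of all genes called, 3 with 4 libraries, was 13 to 26 with a library left out, and there the lone library is assumed to vary like the intact pair. A pseudocount of 0.1 gave 6 calls. Calls numbered 0 under a pseudocount of 5, no filter, omission of short RNA genes or voom on the reads. In these settings limma had 795, 1342, 859 and 611 genes at an unadjusted p under 0.05. The 3 genes called with 4 libraries are short RNA genes, so their omission removed them before the fit and could not test their calls. With the replicate number as a block the count of calls was 8, with 0 members among them. The deviations of same-numbered libraries correlated at -0.017 over genes, so the numbers were not taken to pair the libraries. Snora16a lost its call under a pseudocount of 5, no filter, a filter at a mean of 5 and voom (adjusted p = 0.106, 0.742, 0.0569 and 0.812 by limma). The shallowest library, DMSO replicate 2, held 24 reads of Snhg3 and 2 reads of Snhg11, and the part of depth in the members' values was not tested.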

Other observations

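The other genes that passed the limma test rested on as few reads as Snora16a. Snora64 was at 49.3 and 77.7 FPKM in ACSS2i and at the lowest value of 0.01 in both DMSO libraries, which came to 1 and 2 reads in ACSS2i and 0 in DMSO. Mir7063 was at 0.01 in both ACSS2i libraries and at 168 and 575 FPKM in DMSO, which came to 0 reads in ACSS2i and 1 read in each DMSO library. Like Snora16a, each of these genes reached the mean of 1 FPKM only through the group in which it was above 0.01. For Mir7063 a count of 0 in ACSS2i allows up to 3 reads, worth 746 FPKM in replicate 1 and 587 FPKM in replicate 2. By voom on the reads 0 genes passed an adjusted p of 0.05, and 611 of the 7676 genes had an unadjusted p under 0.05. The reads for these genes assume that the smaller value of each is a single read.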
